A study of Mus musculus with 15 samples.

Results

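Heart muscle fires and repolarises through ion channels and passes the impulse from cell to cell through connexins. The 32 genes described here are potassium, sodium and chloride channel subunits and connexins of the mouse heart, chosen by name from the 36653 gene identifiers of the expression table, and all 32 were found. They were read in 15 ventricle samples of wild-type C57BL/6 mice aged 10 weeks, sequenced as poly(A)-selected RNA. Of these mice, 5 carried a subcutaneous pump that released angiotensin II (AngII) at 1000 ng/kg/min and were also dosed with oleic acid (OA), the monounsaturated fatty acid of olive oil. The OA dose was 160 mg/kg, and each mouse got 0.3 mL a day. A further 5 carried the AngII pump without OA, and 5 were given saline and are called vehicle. The labels call the 5 samples of each group biological replicates. The sources used here do not give the duration of treatment or the sex of the mice. AngII is a peptide hormone that constricts vessels, raises blood pressure and drives growth of the heart.

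In a ventricular muscle cell, sodium current starts the action potential, transient outward and delayed rectifier potassium currents end it, and inward rectifier current holds the resting potential. ATP-sensitive (K-ATP) channels join a pore subunit to a sulfonylurea receptor and open when energy runs low, and pacemaker channels carry the depolarising current of spontaneously beating cells. Connexins form the gap junctions between neighbouring cells. Lower amounts of several repolarising potassium channels and of the main ventricular connexin are a known feature of the enlarged and failing heart.

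The libraries rested on 24.5 to 28.3 M reads as the FPKM scale counts them, FPKM being the number of fragments scaled to gene length and library size. Mitochondrially encoded genes took 42.4% ± 3.10 of the summed FPKM in AngII plus OA hearts, 41.1% ± 5.20 in AngII hearts and 47.1% ± 2.52 in vehicle hearts (SD, n = 5 each). A 2-sided exact permutation test of this share gave p = 0.0397 for AngII plus OA against vehicle and 0.0635 for AngII against vehicle. One library stood apart. In AngII replicate 2 the summed FPKM of 7 ventricular cardiomyocyte markers was 15847, against 26417 to 35014 in the other 14 libraries, and the sum of 4 atrial markers was 2461, against 1.98 to 692. It was the lowest of the 15 libraries for 19 of the 32 channel and connexin genes, so the list's counts and the values it moved most are also given without it. What the low values of this library come from was not tested. In samples of whole tissue, fewer cells of a type and less RNA per cell cannot be told apart.

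The 32 genes spanned a wide range of levels. Over all 15 libraries, 8 had a mean of at least 10 FPKM, 18 lay between 1 and 10, and 6 lay under 1. Gja1, the main connexin of working ventricular muscle, was highest with a mean of 94.3 FPKM. It was followed by Kcnk3, a tandem-pore background potassium channel, at 39.5 FPKM, and by Kcnip2, the accessory subunit of the fast transient outward current, at 26.8 FPKM. The K-ATP genes Abcc9 and Kcnj8 came next at 22.5 and 21.7 FPKM, then the delayed rectifier Kcna5 at 18.1 FPKM and the K-ATP gene Kcnj11 at 16.3 FPKM. The acetylcholine-activated inward rectifier Kcnj3 was the last above 10, at 10.2 FPKM. The 4 lowest genes stayed under a mean of 0.5 FPKM and were not tested. These were the calcium-activated potassium channel Kcnn2 at 0.442, the voltage-gated potassium channel Kcna2 at 0.305, the sodium channel Scn10a, best known from sensory neurons, at 0.228, and the slow transient outward channel Kcna4 at 0.109 FPKM. All 4 had their lowest group mean in AngII hearts and their groups overlapped in the AngII and vehicle comparison. Scn10a, for one, had 0.291 ± 0.101 FPKM in AngII plus OA, 0.125 ± 0.0432 in AngII and 0.268 ± 0.109 in vehicle hearts (SD, n = 5 each), and Kcnn2 had 0.485 ± 0.198, 0.346 ± 0.114 and 0.495 ± 0.236 FPKM in these groups. For Scn10a the overlap came from AngII replicate 2, at 0.189 FPKM. Its other AngII hearts, at 0.0711 to 0.133 FPKM, lay below every vehicle heart, the lowest at 0.147. How many of all genes separate once that library is left out was not counted, so this cannot be read as a difference. Scn10a rested on 16 to 95 reads per library. The lowest tested gene, the tandem-pore channel Kcnk2, had a mean of 0.752 FPKM.

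**Figure D1:**
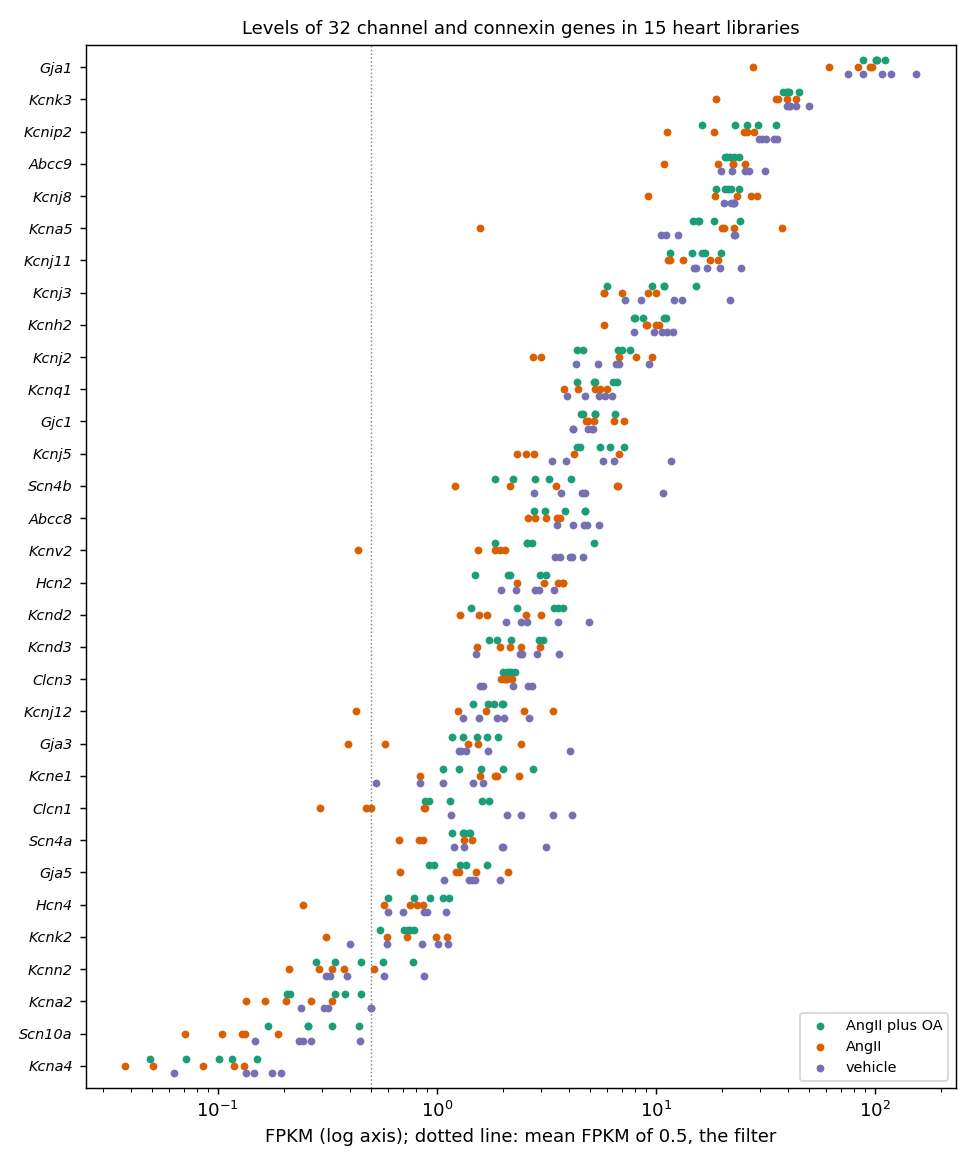
FPKM on a log axis of each of the 32 genes (rows, ordered by their mean) in each of the 15 libraries, with AngII plus OA above AngII above vehicle within a row. Gja1 is highest with a mean of 94.3 FPKM and Kcna4 lowest with 0.109, the dotted line marks the filter at a mean of 0.5, and for many genes 1 AngII library lies far to the left.

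AngII against vehicle asks what the hormone did to these transcripts. Clcn1, a chloride channel known from skeletal muscle, where it stabilises the resting potential, and Kcnv2, a silent potassium channel subunit that pairs with delayed rectifier subunits and does not conduct alone, were both lower in AngII hearts. Among the 28 tested genes these 2 were called by limma at a Benjamini-Hochberg adjusted p under 0.05, and none was called higher. Of all 13121 genes tested, 0.236% were called lower and 1.27% higher. An unadjusted p under 0.05 was found for 7 of the 28 and for 2180 of all genes tested. The list was drawn up with earlier results of these data known, in which both genes had been named, so their place in it is not independent evidence.

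In AngII hearts 25 of the 28 tested genes had a lower mean log2 value than in vehicle hearts and 3 a higher one (Kcne1, Gjc1 and Hcn2). The median log2 change was -0.26 for the 28 genes and 0.0745 for all genes tested. As the list was drawn up with earlier results known, this tilt is not independent evidence either. Among 21 tested channel and connexin genes outside the list, 10 were lower and 11 higher, with a median of 0.049. Without AngII replicate 2 the split of the 28 genes became 19 lower and 9 higher and their median -0.13. The genes that then turned from lower to higher were Kcna5 (0.66), Kcnj8 (0.13), Kcnj12 (0.12), Kcnk2 (0.058), Gja5 (0.028) and Kcnq1 (0.016), none of them called with or without that library. Clcn1 was at -1.06 without it (limma adjusted p = 0.0219). Without vehicle replicate 4, the highest library for 13 of the 32 genes, the median was -0.16. With libraries weighted by quality 17 genes were lower and 11 higher, with a median of -0.11. By quantile normalization the median of the list was -0.37. It was -0.35 with libraries shifted to a common median or with mitochondrial genes left out of the FPKM total. Markers of the cells in the tissue moved too. All 7 ventricular cardiomyocyte markers had a lower mean log2 value in AngII than in vehicle hearts and none was called. Their sums were 29653 to 35014 FPKM in AngII plus OA, 15847 to 30132 in AngII and 26540 to 32608 in vehicle hearts. Leaving out AngII replicate 2, 4 of the 7 were lower and 3 higher, with a median log2 difference of -0.018 where it had been -0.12. All 6 fibroblast markers had a higher mean in AngII and 1 was called, with sums of 527 to 1084 FPKM in AngII plus OA, 724 to 1187 in AngII and 401 to 766 in vehicle hearts. All 5 macrophage markers were higher in AngII and 2 were called. The part of these shifts in the result was not tested. In 3 of the 28 genes, Clcn1, Kcnv2 and Kcnip2, every AngII value lay below every vehicle value, and in none did every AngII value lie above. Of all genes tested, 3.8% had separate values in these groups, 0.663% lower and 3.13% higher in AngII.

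**Figure D2:**
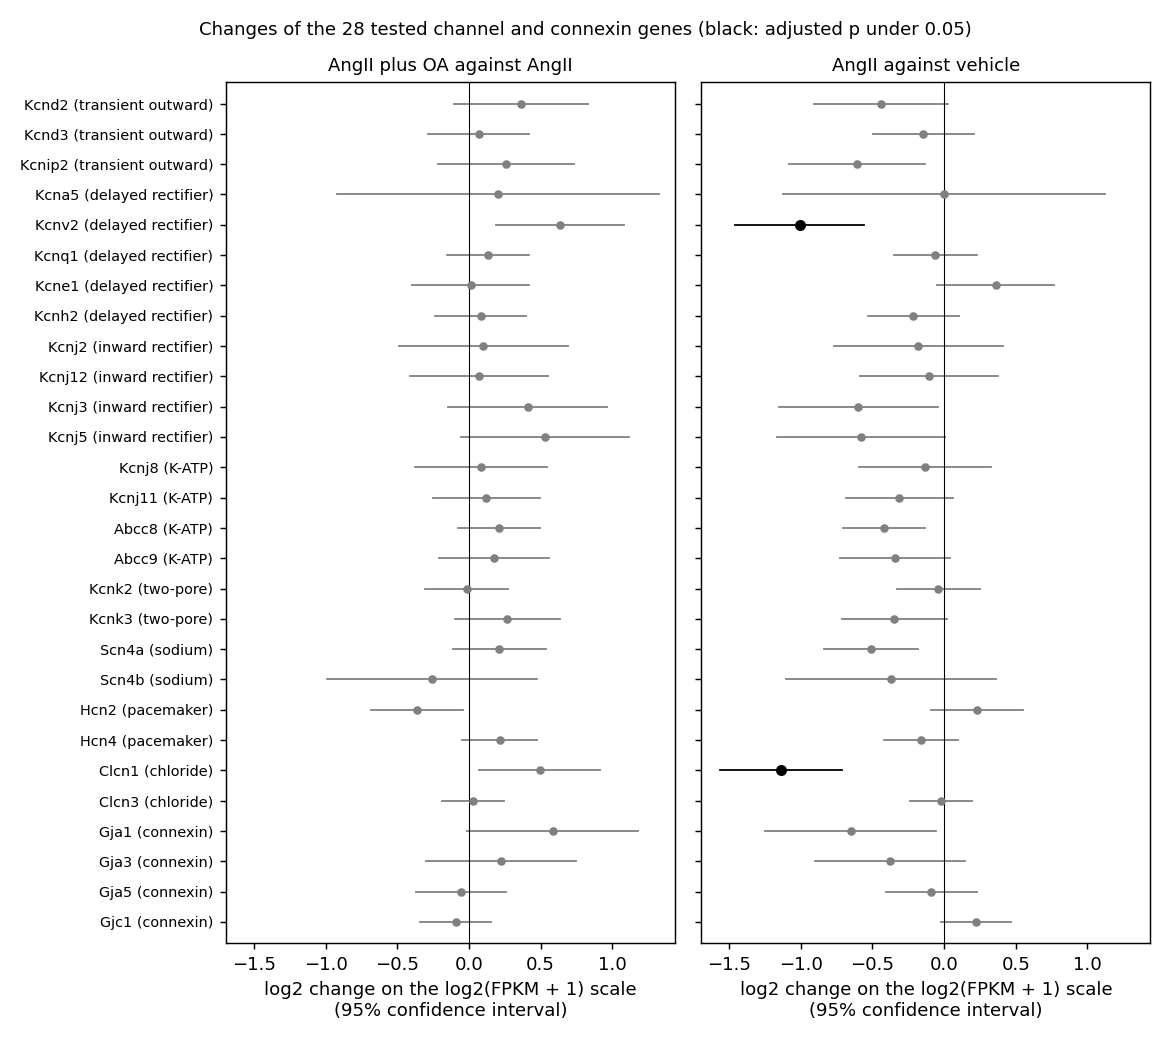
Log2 change of each of the 28 tested genes with its 95% confidence interval, AngII plus OA against AngII on the left and AngII against vehicle on the right, on the log2(FPKM + 1) scale. Clcn1 at -1.14 and Kcnv2 at -1.01 on the right are the 2 called changes, and no gene on the left is called.

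Clcn1 (ENSMUSG00000029862) stood at 1.15, 0.919, 0.888, 1.61 and 1.74 FPKM in the 5 AngII plus OA hearts, at 0.502, 0.292, 0.873, 0.881 and 0.478 FPKM in the 5 AngII hearts, and at 1.16, 4.14, 2.10, 2.41 and 3.40 FPKM in the 5 vehicle hearts. Every AngII heart lay below every vehicle heart and below every AngII plus OA heart, although the nearest AngII and AngII plus OA values, 0.881 and 0.888, were almost equal. The means were 1.26 ± 0.392 FPKM in AngII plus OA, 0.605 ± 0.261 in AngII and 2.64 ± 1.16 in vehicle hearts (SD, n = 5 each). Clcn1 fell in AngII relative to vehicle by 1.14 on the log2(FPKM + 1) scale (SE 0.20, 95% confidence interval -1.56 to -0.71, limma adjusted p = 0.0148), and the mean FPKM of AngII was 0.229 of that of vehicle. The call held in 27 of the 27 alternative settings run, with a highest adjusted p of 0.0485. The gene rested on 39 to 552 reads per library. Since Clcn1 is a skeletal muscle gene, 6 skeletal muscle markers were read beside it. Their sums were 2.81 to 3.99 FPKM in AngII plus OA, 3.81 to 5.52 in AngII and 3.02 to 5.19 in vehicle hearts, and 3 of the 6 (Myh4, Myh1 and Actn3) were under 1 FPKM in every library. Myh4, the fast skeletal myosin, did not exceed 0.00629 FPKM. The remaining markers did not move alike. Mylpf was at 1.2 to 1.9 FPKM in AngII plus OA, 1.0 to 2.2 in AngII and 1.5 to 2.5 in vehicle hearts. Tnnt3 was at 0.41 to 0.81, 0.91 to 2.95 and 0.54 to 1.3 FPKM in these groups, highest in AngII replicate 2. Tnni2 was at 0.90 to 1.5, 1.1 to 1.5 and 0.7 to 1.4 FPKM. The part of skeletal muscle RNA in the Clcn1 difference was not tested.

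The promoter of Clcn1 is printed because this gene had the largest change on the list. It is joined by those of Kcnip2, the other gene with a promoter entry whose AngII and vehicle values did not overlap, and of Gja1, the most abundant. Sequences are from RefSeq on GRCm38.p6, each 250 bases before to 50 after the annotated start, 5′ to 3′ on the strand of the gene, and 24 of the 32 genes had an entry. Capitals mark matches, on either strand, to the MEF2-type motif (CTA, any 4 bases, TAG), the GATA motif AGATAA, the GC box GGGCGG or the E-box CANNTG. Clcn1 lies at chr6:42286435-42286734 (+ strand), Kcnip2 at chr19:45816014-45816313 (- strand) and Gja1 at chr10:56377050-56377349 (+ strand).
Clcn1: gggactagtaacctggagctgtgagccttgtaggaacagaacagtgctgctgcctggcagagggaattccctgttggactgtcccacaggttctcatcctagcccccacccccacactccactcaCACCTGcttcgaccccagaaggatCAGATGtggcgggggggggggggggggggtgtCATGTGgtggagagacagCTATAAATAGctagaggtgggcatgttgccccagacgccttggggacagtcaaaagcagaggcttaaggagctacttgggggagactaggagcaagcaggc
Kcnip2: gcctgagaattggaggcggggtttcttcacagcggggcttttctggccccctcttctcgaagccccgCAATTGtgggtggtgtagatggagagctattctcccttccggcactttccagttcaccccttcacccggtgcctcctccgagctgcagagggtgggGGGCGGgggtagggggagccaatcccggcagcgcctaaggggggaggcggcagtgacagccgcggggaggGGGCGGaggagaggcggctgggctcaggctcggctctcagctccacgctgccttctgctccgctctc
Gja1: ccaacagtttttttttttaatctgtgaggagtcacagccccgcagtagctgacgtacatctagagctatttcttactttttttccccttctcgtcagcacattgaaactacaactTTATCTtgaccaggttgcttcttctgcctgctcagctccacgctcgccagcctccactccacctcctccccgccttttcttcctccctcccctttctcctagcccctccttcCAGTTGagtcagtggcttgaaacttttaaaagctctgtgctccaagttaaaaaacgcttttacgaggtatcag
The Clcn1 window holds a MEF2-type match 51 bases before the start, which overlaps a TATA box (TATAAA) beginning at base 50, and 3 E-box matches. The 24 genes have 29 windows, since some have more than 1 start. A MEF2-type match was found in 2 of the 29 windows, those of Clcn1 and Gja3, and in 3.69% of all 32851 windows of this length. GC boxes stood in 15 of the 29 windows, with 2 boxes in that of Kcnip2, against 35.7% of all windows. The GATA motif was matched in 1 of the 29 windows, that of Gja1, and in 11.2% of all windows. E-boxes stood in 22 of the 29 and in 72.3% of all windows. These matches describe letters in a window and say nothing of binding.

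Among delayed rectifier genes, Kcnv2 (ENSMUSG00000047298) stood at 2.60, 1.85, 2.71, 2.59 and 5.23 FPKM in AngII plus OA hearts, at 1.55, 0.437, 1.94, 1.85 and 2.06 FPKM in AngII hearts and at 3.46, 4.16, 4.67, 4.07 and 3.64 FPKM in vehicle hearts. All 5 AngII hearts lay below all 5 vehicle hearts, while the AngII plus OA hearts overlapped both other groups and held the single highest value. Kcnv2 fell in AngII relative to vehicle by 1.01 on the log2 scale (SE 0.21, limma adjusted p = 0.0304), with means of 1.57 ± 0.659 FPKM in AngII and 4.0 ± 0.476 in vehicle hearts (SD, n = 5 each). Without AngII replicate 2 the change was -0.81 (limma adjusted p = 0.0287). This call was less settled than that of Clcn1 and held in 19 of 27 alternatives. It was lost with no filter on low values (adjusted p = 0.0765) and on leaving out AngII replicate 1 (0.0630), 4 (0.0558) or 5 (0.0553) or vehicle replicate 2 (0.0661), 3 (0.0600), 4 (0.0675) or 5 (0.0647), with the same direction each time.

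Kcna5, which carries the ultrarapid delayed rectifier current, varied widely within groups. It stood at 15.7, 14.9, 18.5, 24.4 and 15.6 FPKM in AngII plus OA hearts, at 22.8, 1.58, 20.5, 37.9 and 20.1 FPKM in AngII hearts and at 22.9, 10.6, 22.7, 12.7 and 11.2 FPKM in vehicle hearts. AngII replicate 2 was the lowest of all libraries and AngII replicate 4 the highest, and the groups overlapped. The change in AngII against vehicle was -0.003 on the log2 scale with all libraries (95% confidence interval -1.13 to 1.12) and 0.66 without AngII replicate 2 (limma adjusted p = 0.182). The other 3 tested genes of this role did not pass. Kcnh2, the pore of the rapid delayed rectifier, had 9.37 ± 1.53 FPKM in AngII plus OA, 8.87 ± 1.79 in AngII and 10.4 ± 1.55 in vehicle hearts. Kcnq1, the pore of the slow delayed rectifier, had 5.58 ± 0.914, 5.02 ± 0.881 and 5.28 ± 0.944 FPKM in AngII plus OA, AngII and vehicle hearts. Kcne1, the small subunit that slows Kcnq1, was among the 3 genes with a higher mean log2 value in AngII than in vehicle hearts. It had 1.74 ± 0.673 FPKM in AngII plus OA, 1.71 ± 0.560 in AngII and 1.11 ± 0.447 in vehicle hearts. Its change in AngII against vehicle was 0.36 (SE 0.19, limma adjusted p = 0.365).

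Transient outward genes had lower means in AngII than in vehicle hearts and none passed. Kcnip2 (ENSMUSG00000025221) stood at 23.0, 16.3, 29.2, 26.1 and 35.4 FPKM in AngII plus OA hearts, at 25.4, 11.3, 26.1, 18.5 and 28.2 FPKM in AngII hearts and at 30.6, 34.8, 31.7, 35.6 and 29.6 FPKM in vehicle hearts. The 5 vehicle hearts lay within a narrow band above all 5 AngII hearts, and the AngII plus OA hearts spread over both. The change in AngII against vehicle was -0.61 (SE 0.22, 95% confidence interval -1.08 to -0.13, limma adjusted p = 0.179), and -0.40 without AngII replicate 2 (limma adjusted p = 0.251). Its partners, the pore subunits of the fast current, were much less abundant. Kcnd2 had 2.91 ± 0.997 FPKM in AngII plus OA, 2.02 ± 0.725 in AngII and 3.12 ± 1.18 in vehicle hearts, a change of -0.44 in AngII against vehicle (limma adjusted p = 0.330). Kcnd3 had 2.37 ± 0.608, 2.21 ± 0.542 and 2.57 ± 0.763 FPKM in AngII plus OA, AngII and vehicle hearts, a change of -0.14 (limma adjusted p = 0.707), or -0.063 without AngII replicate 2.

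The inward rectifiers fall into a classical pair, Kcnj2 and Kcnj12, which hold the resting potential, and the pair Kcnj3 and Kcnj5, which together form the channel that acetylcholine opens and are known chiefly from atria and nodes. Kcnj3 stood at 10.9, 6.01, 9.64, 10.9 and 15.3 FPKM in AngII plus OA hearts, at 7.0, 10.0, 9.25, 5.81 and 5.81 FPKM in AngII hearts and at 7.25, 8.54, 13.1, 21.8 and 12.1 FPKM in vehicle hearts. Vehicle replicate 4 was the highest library and the groups overlapped. The change of Kcnj3 in AngII against vehicle was -0.60 (SE 0.26, limma adjusted p = 0.263), and that of Kcnj5 was -0.58 (SE 0.28, limma adjusted p = 0.304), with 5.57 ± 1.18 FPKM in AngII plus OA, 3.74 ± 1.86 in AngII and 6.24 ± 3.34 in vehicle hearts. Kcnj2 differed little in its group means, at 6.07 ± 1.46 FPKM in AngII plus OA, 6.06 ± 3.08 in AngII and 6.51 ± 1.88 in vehicle hearts. Kcnj12 had 1.80 ± 0.220 FPKM in AngII plus OA, 1.85 ± 1.14 in AngII and 1.89 ± 0.509 in vehicle hearts. The intervals of both were wide in AngII against vehicle, -0.77 to 0.41 for Kcnj2 and -0.58 to 0.38 for Kcnj12. On leaving out AngII replicate 2 these changes were -0.0076 for Kcnj2 and 0.12 for Kcnj12, against -0.18 and -0.10 with it.

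For the K-ATP channel, the pore subunits are Kcnj11, of cardiac muscle, and Kcnj8, of vessel wall cells, and the receptors are Abcc9 and Abcc8. Abcc9 stood at 21.9, 21.2, 24.0, 20.7 and 22.7 FPKM in AngII plus OA hearts, at 22.6, 10.9, 25.6, 22.5 and 19.3 FPKM in AngII hearts and at 25.6, 19.8, 26.6, 31.4 and 22.3 FPKM in vehicle hearts. AngII replicate 2 was the lowest and vehicle replicate 4 the highest library, and the groups overlapped. The change in AngII against vehicle was -0.34 (SE 0.18, limma adjusted p = 0.364), or -0.14 without that library. Abcc8, the receptor known from the pancreatic beta cell and from mouse atria, had 3.85 ± 0.911 FPKM in AngII plus OA, 3.15 ± 0.449 in AngII and 4.57 ± 0.732 in vehicle hearts, a change of -0.42 in AngII against vehicle (SE 0.13, 95% confidence interval -0.71 to -0.13, limma adjusted p = 0.132). Kcnj11 had 15.9 ± 3.06, 14.6 ± 3.61 and 18.3 ± 3.92 FPKM in AngII plus OA, AngII and vehicle hearts. Kcnj8 had 21.4 ± 1.84 FPKM in AngII plus OA, 21.5 ± 7.98 in AngII and 22.1 ± 0.928 in vehicle hearts, and its change in AngII against vehicle was -0.13 with AngII replicate 2 and 0.13 without it. Pericytes are known for Kcnj8 and Abcc9, and the sum of 6 pericyte markers was 211 FPKM in AngII replicate 2 against 257 to 435 in the other libraries. The part of these cells in the low Kcnj8 (9.23 FPKM) and Abcc9 of that library was not tested.

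Kcnk3, which carries a background potassium current, stood at 40.6, 38.2, 39.7, 39.8 and 44.9 FPKM in AngII plus OA hearts, at 39.8, 18.8, 43.8, 35.5 and 36.1 FPKM in AngII hearts and at 40.8, 50.1, 40.9, 43.7 and 39.7 FPKM in vehicle hearts. Apart from AngII replicate 2 all libraries lay between 35.5 and 50.1 FPKM, and the groups overlapped. Its change in AngII against vehicle was -0.35 with all libraries (limma adjusted p = 0.325) and -0.15 without that one (limma adjusted p = 0.451). Kcnk2, a mechanically gated relative, had 0.709 ± 0.0932 FPKM in AngII plus OA, 0.751 ± 0.321 in AngII and 0.797 ± 0.296 in vehicle hearts.

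Among the sodium channel genes, Scn4b, an accessory beta subunit, stood at 2.22, 3.27, 4.11, 1.84 and 2.82 FPKM in AngII plus OA hearts, at 6.73, 1.21, 6.62, 3.51 and 2.17 FPKM in AngII hearts and at 4.75, 3.68, 4.60, 10.8 and 2.79 FPKM in vehicle hearts. Its values differed several-fold within the AngII and vehicle groups. Its change was -0.63 in AngII plus OA against vehicle (SE 0.34, 95% confidence interval -1.36 to 0.10) and -0.37 in AngII against vehicle (95% confidence interval -1.10 to 0.36). Without AngII replicate 2 its change in AngII against vehicle was -0.11, and with libraries weighted by quality it was 0.10. Scn4a, the pore of the skeletal muscle sodium channel, had 1.33 ± 0.0941 FPKM in AngII plus OA, 1.03 ± 0.341 in AngII and 1.93 ± 0.772 in vehicle hearts, a change of -0.51 in AngII against vehicle (SE 0.15, 95% confidence interval -0.84 to -0.18) that missed the threshold (limma adjusted p = 0.114). Its 5 AngII plus OA hearts were within 1.18 to 1.42 FPKM, a far narrower range than in either other group.

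Pacemaker genes were low. Hcn2 stood at 2.12, 1.5, 2.97, 3.15 and 2.17 FPKM in AngII plus OA hearts, at 3.77, 3.78, 3.10, 2.33 and 3.59 FPKM in AngII hearts and at 1.96, 2.80, 2.30, 3.44 and 2.92 FPKM in vehicle hearts. It was the 1 gene of the list for which AngII replicate 2 held the highest value, and the groups overlapped. The change was -0.36 in AngII plus OA against AngII (SE 0.15, limma adjusted p = 0.737) and 0.23 in AngII against vehicle (limma adjusted p = 0.476). Hcn4, the channel of the sinus node, had 0.904 ± 0.216 FPKM in AngII plus OA, 0.650 ± 0.251 in AngII and 0.836 ± 0.193 in vehicle hearts. Clcn3, a chloride transporter of intracellular membranes, was not called, with 2.14 ± 0.106 FPKM in AngII plus OA, 2.07 ± 0.0900 in AngII and 2.15 ± 0.529 in vehicle hearts and an interval of -0.24 to 0.20 for AngII against vehicle.

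Connexin genes did not pass in any comparison. Gja1 stood at 88.8, 101, 102, 101 and 112 FPKM in AngII plus OA hearts, at 84.0, 27.7, 95.1, 96.9 and 61.8 FPKM in AngII hearts and at 75.6, 87.9, 119, 154 and 108 FPKM in vehicle hearts. The AngII plus OA hearts were the most alike, and 2 AngII hearts, replicates 2 and 5, lay below all other libraries. The change in AngII against vehicle was -0.65 (SE 0.28, limma adjusted p = 0.255), and -0.34 without AngII replicate 2 (limma adjusted p = 0.351). Gjc1, a connexin of conduction tissue and of vessel wall, had 5.27 ± 0.788 FPKM in AngII plus OA, 5.71 ± 1.05 in AngII and 4.72 ± 0.480 in vehicle hearts, a change of 0.22 in AngII against vehicle (limma adjusted p = 0.355). Gja5, the connexin of atria, of fast conduction fibres and of arterial endothelium, had 1.25 ± 0.318, 1.36 ± 0.522 and 1.47 ± 0.308 FPKM in AngII plus OA, AngII and vehicle hearts. Gja3, best known from the eye lens, had 1.52 ± 0.292 FPKM in AngII plus OA, 1.27 ± 0.815 in AngII and 1.94 ± 1.21 in vehicle hearts.

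**Figure D3:**
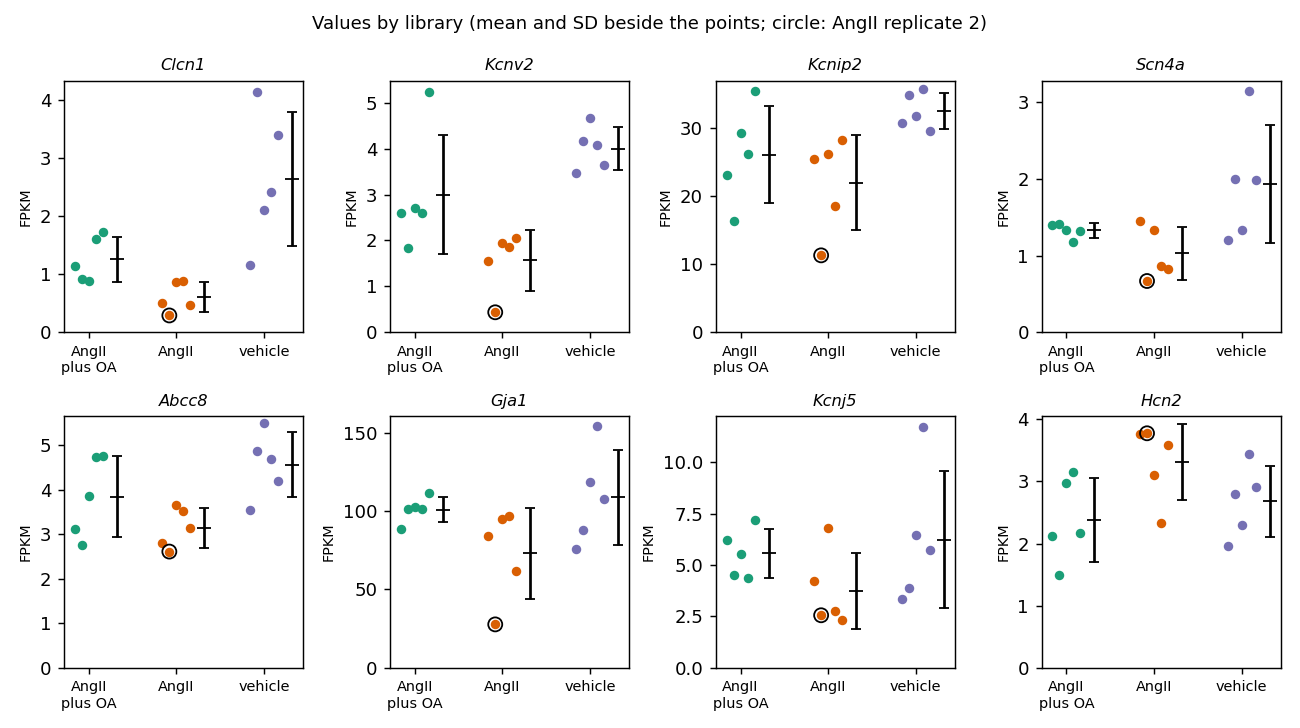
FPKM of 8 genes in the 5 hearts of each group, AngII plus OA, AngII and vehicle from left to right, with the mean and SD beside the points and a circle around AngII replicate 2. In Clcn1, Kcnv2 and Kcnip2 every AngII heart lies below every vehicle heart, and in the other 5 genes the groups overlap.

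AngII plus OA against AngII compares hearts exposed to the hormone with and without oleic acid. The labels record no daily dose volume for the mice without OA, so the fatty acid and the dosing itself cannot be told apart. No gene of the list was called by limma, and 3 of the 28 (Kcnv2, Clcn1 and Hcn2) had an unadjusted p under 0.05. Of all 13121 genes tested 0% were called, with 866 at an unadjusted p under 0.05. The changes were 0.64 for Kcnv2 (SE 0.21, 95% confidence interval 0.19 to 1.08, limma adjusted p = 0.706) and 0.49 for Clcn1 (SE 0.20, 95% confidence interval 0.07 to 0.92, limma adjusted p = 0.737). Clcn1 was the 1 gene of the 28 whose AngII plus OA and AngII values did not overlap, higher in AngII plus OA. Of all genes tested, 1.27% had separate values in these groups, 0.229% higher and 1.04% lower in AngII plus OA. Its mean in AngII plus OA was 2.08 times that in AngII and 0.477 of that in vehicle hearts. Kcnv2 without AngII replicate 2 had a change of 0.44 (limma adjusted p = 0.644).

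Of the 28 genes, 23 had a higher mean log2 value in AngII plus OA than in AngII hearts and 5 a lower one. The median log2 change was 0.15 for the 28 genes and -0.0522 for all genes. These counts share their AngII libraries with the comparison of AngII and vehicle. They moved with the same library, to 16 higher and 12 lower and a median of 0.048 without AngII replicate 2, whereas leaving out AngII replicate 3 gave a median of 0.26. With libraries weighted by quality 16 were higher and 12 lower, with a median of 0.035. With all libraries the largest values after Kcnv2 were 0.58 for Gja1 (limma adjusted p = 0.737) and 0.53 for Kcnj5 (limma adjusted p = 0.737). Without AngII replicate 2 Gja1 was at 0.27 and Kcnj5 at 0.45, and Kcnj3, at 0.51, lay above Kcnv2, at 0.44. Changes of like size went the other way, with Scn4b at -0.52 (limma adjusted p = 0.745) and Kcna5 at -0.46 (limma adjusted p = 0.719). With all libraries Scn4b was at -0.26 and Kcna5 at 0.20. Cell markers moved beside these genes. In AngII plus OA against AngII all 7 ventricular cardiomyocyte markers had a higher mean log2 value, with a median change of 0.31. All 6 fibroblast markers had a lower one, with a median of -0.23, and none was called. With that library left out, 6 of the 7 were higher, with a median of 0.16, and all 6 fibroblast markers remained lower, with a median of -0.21. Their part in the shift of the channel genes was not tested.

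In AngII plus OA against vehicle no gene of the list was called, as for all 13121 genes (0%, with 441 at an unadjusted p under 0.05), and Clcn1 was the 1 gene of the 28 with an unadjusted p under 0.05. Clcn1 had a change of -0.64 (SE 0.20, 95% confidence interval -1.07 to -0.22, limma adjusted p = 1) and Kcnv2 of -0.37 (95% confidence interval -0.82 to 0.08). No gene's values were separate between these groups, where 0.838% of all genes tested did not overlap. Among the 28 genes 22 had a lower mean log2 value in AngII plus OA than in vehicle hearts and 6 a higher one. The median log2 change was -0.079, and 0.025 for all genes tested. Without vehicle replicate 4 the split was 16 lower and 12 higher. With AngII plus OA and AngII joined at equal weight against vehicle, none of the 28 was called, where 0.0229% of all genes were. In that comparison 6 of the 28 and 1432 of all 13121 genes had an unadjusted p under 0.05. Clcn1 came nearest there, with -0.89 (SE 0.17, limma adjusted p = 0.0550), followed by Kcnv2 with -0.69 (SE 0.18, limma adjusted p = 0.138). Without AngII replicate 2 Clcn1 was called in this comparison, at -0.85 (limma adjusted p = 0.0412), and Kcnv2, at -0.59, was not (limma adjusted p = 0.0662). Clcn1 passed in 8 of the 26 alternatives run for it and Kcnv2 in 1.

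Within pairs of related genes the balance was read as the log2 ratio of the FPKM in each library, which does not depend on library scaling. In all 8 pairs the groups overlapped in every comparison. Kcnj3 exceeded Kcnj5 in every library, by a log2 ratio of 0.89 ± 0.34 in AngII plus OA, 1.11 ± 0.58 in AngII and 1.05 ± 0.098 in vehicle hearts (SD, n = 5 each), the tightest group being vehicle. Abcc9 exceeded Abcc8 by 2.55 ± 0.35, 2.63 ± 0.35 and 2.46 ± 0.34 in AngII plus OA, AngII and vehicle hearts. Kcnj11 and Kcnj8 were close to each other, at -0.45 ± 0.31 in AngII plus OA, -0.49 ± 0.59 in AngII and -0.30 ± 0.27 in vehicle hearts. Hcn2 over Hcn4 was 1.38 ± 0.30 in AngII plus OA, 2.45 ± 0.94 in AngII and 1.69 ± 0.26 in vehicle hearts, with 3.94 in AngII replicate 2. Gja1 over Gjc1 was 4.27 ± 0.27 in AngII plus OA, 3.57 ± 0.76 in AngII and 4.49 ± 0.50 in vehicle hearts, with 2.40 in AngII replicate 2.

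**Figure D4:**
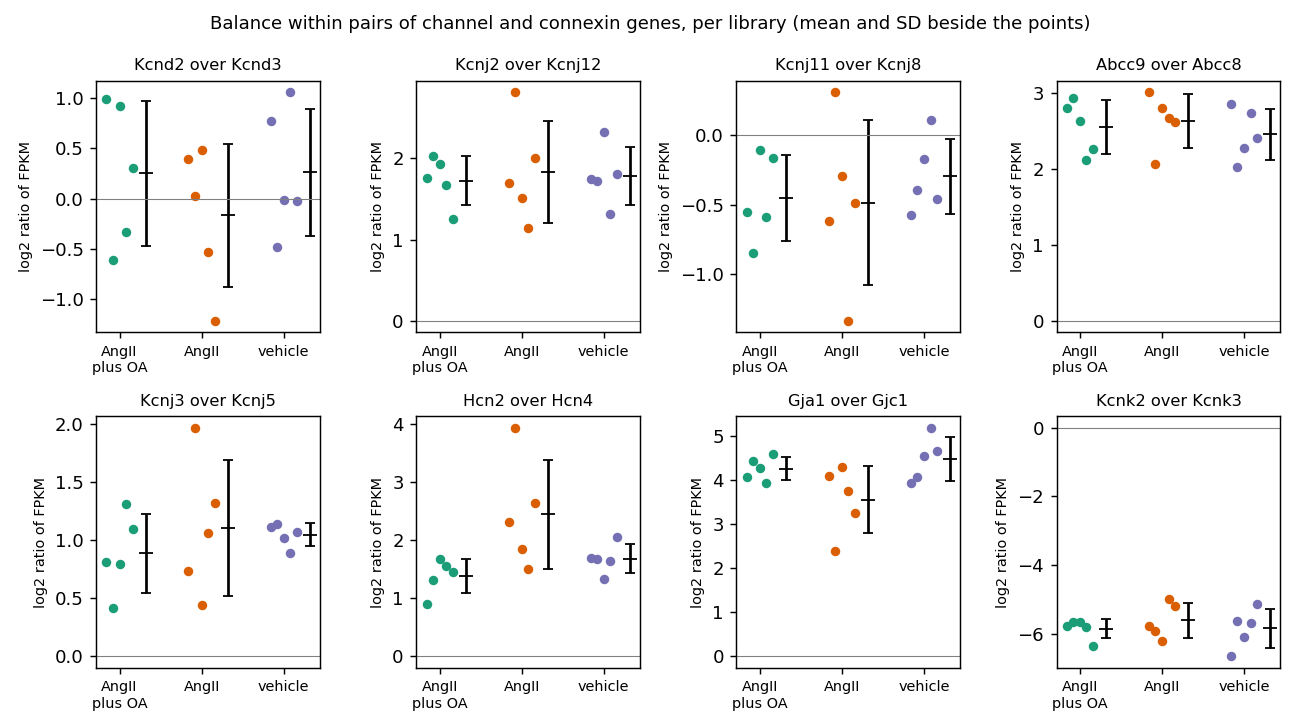
Log2 ratio of the FPKM of 8 pairs of related genes in each library, AngII plus OA, AngII and vehicle from left to right, with the mean and SD beside the points. Every pair overlaps between the groups, and the AngII point that stands apart for Hcn2 over Hcn4, at 3.94, is replicate 2.

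Several of these genes are known from atria, and atrial RNA varied within every group. The mean log2(FPKM + 1) of Myl7, Myl4, Sln and Bmp10 ranged over 0.52 to 5.88 in AngII plus OA, 0.68 to 8.33 in AngII and 0.70 to 5.99 in vehicle hearts. In a fit of group and this score none of the 28 genes was called, against 0.518% of all genes tested. The slope had an unadjusted p under 0.05 in 2 of the 28 and in 1695 of all 13121 genes. It was above 0 in 13 of the 28 genes and below in 15, and above 0 in 6033 of all genes. Without AngII replicate 2 it was above 0 in 25 of the 28 and below in 3, with a median of 0.038. With libraries weighted by quality it was above 0 in 21 and below in 7. Kcnj3 had the smallest p, with 0.14 log2 per unit of the score (SE 0.036, limma adjusted p = 0.131). It gave 0.15 without AngII replicate 2 (limma adjusted p = 0.292) and was called when libraries were weighted by quality (0.16, limma adjusted p = 0.0379). Its partner Kcnj5 was not called. Kcnj2 had -0.11 (limma adjusted p = 0.312) and Kcna5 -0.19 (limma adjusted p = 0.396). Without AngII replicate 2 the slope of Kcna5 was 0.0043.

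**Figure D5:**
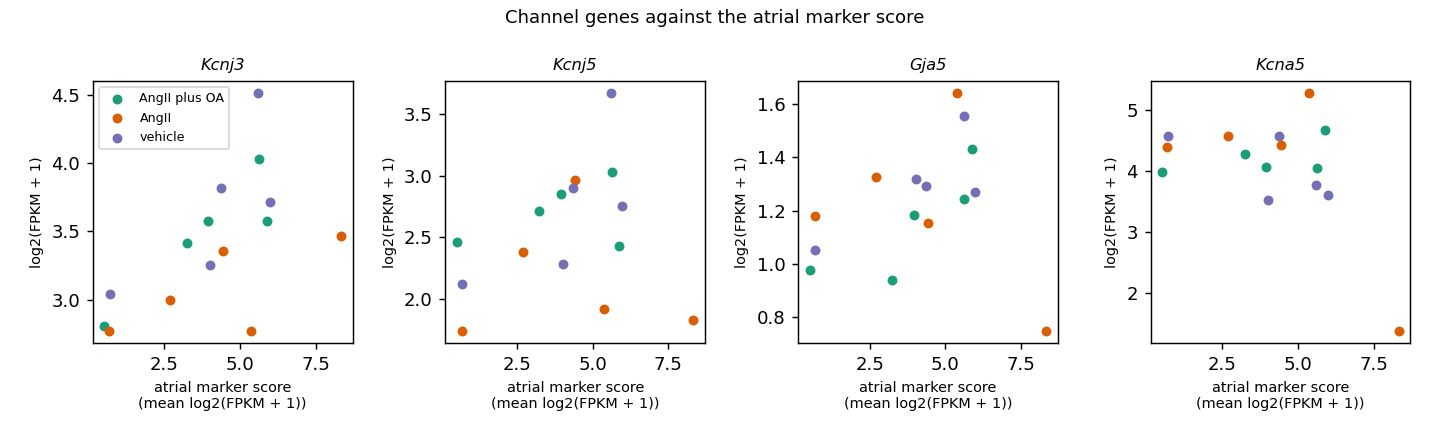
Log2(FPKM + 1) of 4 channel and connexin genes against the atrial marker score in the 15 libraries, coloured by group in the order AngII plus OA, AngII and vehicle. The point at a score of 8.33 is AngII replicate 2, which holds the lowest Gja5 and Kcna5 of all libraries but not the highest Kcnj3.

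Beyond the list, 109 further identifiers belonged to the same channel and connexin families by symbol, and 21 of them passed the filter. None was called in AngII plus OA against AngII (3 at an unadjusted p under 0.05), AngII against vehicle (4) or AngII plus OA against vehicle (1). Of all 13121 genes tested, 866, 2180 and 441 had such a p in these comparisons. The 21 genes had median log2 changes of -0.039, 0.049 and 0.029 in the same order, with 9, 11 and 13 of them higher. Kcng2, another silent potassium channel subunit, was among the 2 most abundant with a mean of 20.3 FPKM, and its change in AngII against vehicle was -0.15 (95% confidence interval -0.55 to 0.25, limma adjusted p = 0.740).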

How the data were processed

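The authors deposited FPKM values for 36653 gene identifiers in 15 libraries. Reads were aligned with HISAT2 2.0.4 to a build named mm8, per the submitters' processing notes. The sources used here name no counter, annotation, strand setting or FPKM software, so reads shared by close paralogs or overlapping genes cannot be told apart. Symbols matched 36464 identifiers. Groups and replicate numbers came from the sample titles.

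Tests used limma (version 3.58.1, R 4.3.3) with an intensity trend on log2(FPKM + 1). They covered the 13121 genes whose mean FPKM reached 0.5, and group was the only term of a single fit to the 15 libraries. These fold changes understate the change of low genes. Benjamini-Hochberg adjustment ran over all genes per comparison, and genes were called under 0.05. Tests were 2-sided. The fit was tested on simulated data.

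Whole reads came back from FPKM, gene length and depth for 87.7% of 28996 genes above 0 (tolerance 0.02) and for 29 of the 32 genes described, and served only to describe depth.

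Alternatives covered the pseudocount, filter, scaling, weights, an atrial term, the groups in the fit, a replicate block and leaving out each library. Values in every library are given for called genes and the most abundant gene of each role other than chloride channels. The members and lists were chosen with earlier results of these data known. One channel gene that this rule names is not reported here.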

Additional observations from a re-analysis of the deposited data

Results flagged for a closer look

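Single hearts stood far from the rest of their group for 5 genes of the list, in 5 of the 84 groups of 5 examined, where chance flags about 1 in 20 groups, or 4.2 of 84. In AngII replicate 2, Kcnv2 was at 0.437 FPKM and at 1.55 to 2.06 in the remaining AngII hearts, Kcna5 at 1.58 FPKM against 20.1 to 37.9, and Kcnk3 at 18.8 FPKM against 35.5 to 43.8. In AngII replicate 4, Kcnh2 was at 5.82 FPKM and the other AngII hearts at 9.06 to 10.4. In vehicle replicate 4, the lens connexin Gja3 was at 4.08 FPKM against 1.26 to 1.72 in the other vehicle hearts. AngII replicate 2 also held the most adipocyte markers, a sum of 277 FPKM with at most 81.4 in the other libraries, beside the atrial and cardiomyocyte values given above. Their part in these low values was not tested.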

How the results depend on the processing

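In AngII against vehicle, 2 genes of the list and 197 of all genes were called. Over the libraries left out in turn these counts ranged over 1 to 2 and 49 to 425. All genes called came to 72 with no filter on low values (1 of the list), 109 by quantile normalization, 114 with mitochondrial genes left out of the FPKM total and 70 with only the compared groups in the fit. Calls were 166 higher and 31 lower, but 69 and 40 by quantile normalization, 103 and 57 with libraries shifted to a common median, and 77 and 37 without mitochondrial genes. For AngII plus OA with AngII at equal weight against vehicle, 0 of the list and 3 of all genes were called, against 1 and 49 at a pseudocount of 0.1, 1 and 30 at a mean FPKM of at least 1, 1 and 16 with libraries shifted to a common median, 1 and 28 with the atrial score as a term, 8 of all genes without mitochondrial genes, 81 with quality weights, 1 by quantile normalization and 0 with no filter. Leaving out each library gave 0 to 2 and 0 to 106. AngII plus OA against AngII gave 0 of all genes, or 0 to 1 on leaving out each library. For the slope on the atrial score, 68 of all genes were called, 39 with no filter and 105 with quality weights (1 of the list), or 19 to 87 on leaving out each library. With the replicate number as a block, all genes called were 38 in AngII against vehicle, 0 for both AngII groups against vehicle and 13 for the slope, and the calls of Clcn1 and Kcnv2 held. Correlations of same-numbered libraries ran from -0.35 to 0.435, with 6 of 15 over 0.1 and 4 of 15 libraries closest to their own number, so the numbers were not taken as pairs. Clcn1 and Kcnv2 kept their direction in AngII against vehicle under all 27 alternatives. The cause of these moves was not tested. The 4 genes of the list with a mean under 0.5 FPKM were left out by the filter.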
